A study of Mus musculus with 54 samples.

Results

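The genes described here are 47 genes of G2 and mitosis, from the kinase that starts mitosis to the proteins that divide the cell, measured in mouse hematopoietic stem cells (HSC). They were taken by name from a list, with no threshold on a measured value, but the list was drawn up with earlier results of these data known. All 47 were among the 24421 genes of the count table, and all 47 were among the 14320 genes with enough reads to be tested.

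The study measured the RNA of HSC after lethal irradiation, with and without dmPGE2, a stabilised form of prostaglandin E2 tested as a protectant against radiation. C57BL/6 mice carrying a ZsGreen fluorescent reporter in the Fgd5 locus received 1 injection under the skin of dmPGE2 or of its ethanol vehicle 30 min before 8.53 Gy, and other mice were injected in the same way and not irradiated. HSC were sorted from bone marrow by the SLAM-LSK(wide) gate and the reporter 1 h or 24 h after radiation, taken straight to RNA without culture, and sequenced as 54 libraries. The irradiated groups held 8 libraries each: vehicle at 1 h, dmPGE2 at 1 h, vehicle at 24 h and dmPGE2 at 24 h. The group given dmPGE2 without radiation held 7 libraries at 1 h. The baseline was 15 libraries of non-irradiated mice given vehicle, called untreated here although they were injected. All groups share the reporter allele, which marks Fgd5-expressing cells only, and no group went without an injection. The labels state a dmPGE2 dose of 35 µg, while the stated 3.5 µL of a 0.1 mg/ml solution comes to 0.35 µg. The dose given is therefore not certain.

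Total counts per library ran from 15049400 to 26217000. The summed level of 9 HSC sort markers was between 2419.5 and 4871.75 CPM (counts scaled to library size) in every library, so the labelled cell type was present throughout. Untreated columns name no time, so the libraries of 1 h and 24 h were pooled. Of their tags, 7 occur 2 times, once with a library index number of 42 to 70 and once with one of 79 to 85. The lower index set holds as many untreated libraries as the labels list for 1 h, and the higher as many as for 24 h. No column name ties a set to a time. The 2 libraries of a tag differed by 0.0012 to 0.13 in the mean log2 CPM of the 47 genes and gave the same sex in 7 of 7 pairs. Their counts differed by more than sampling noise, with a chi-square per gene of 18.6 to 43 and a median of 23.7, against 22.2 to 86.5 and a median of 48.6 for untreated libraries of different tags. Libraries prepared separately from 1 mouse would also differ by more than sampling noise, so this does not show separate mice. They were entered as 15 libraries, as the labels list them, and results that change when the 2 are summed are given with that value. If they come from the same mice, p values against this baseline are too small. At 24 h, libraries 5, 6 and 7 of the irradiated dmPGE2 group stood apart from the other libraries of the group on the second principal component, and results are given without them where they change. In these bulk samples, fewer dividing cells and less RNA per dividing cell cannot be told apart.

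Entry into mitosis is driven by the kinase CDK1 bound to B-type cyclins. CDC25 phosphatases and PLK1 switch the complex on, and WEE1 and the p53 target p21, encoded by Cdkn1a, hold it back. Aurora kinases, kinesin motors and the kinetochore then attach and move the chromosomes, the spindle checkpoint delays separation until all are attached, and the anaphase promoting complex (APC/C) with CDC20 and UBE2C destroys cyclin B to end mitosis. Most adult HSC are quiescent. Many genes of this phase are repressed in resting cells by the DREAM complex and activated in cycling cells by MuvB, B-MYB and FOXM1, largely through a promoter element called CHR, and many hold CCAAT boxes bound by NF-Y.

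The promoters of 40 of the 47 genes were matched by symbol in the RefSeq promoter set (GRCm38.p6, which is the mm10 build of the counts). In the 150 bases before the annotated start, 18 of the 40 held a CHR, searched as TTTGAA or TTTAAA on both strands, which is 45% against 16.8% of 27025 genes read the same way. Taken apart, TTTGAA was in 37.5% against 10.5% of all genes. TTTAAA was in 7.5% against 7.78%, so it was no more common here than elsewhere. A CCAAT box on either strand was found in 31 of 40, or 77.5%, against 27.7% of all genes. Both were found in 16 of 40, or 40%, against 4.24%. A match is a description of the letters and not a binding site, and overlapping matches were counted. The 7 promoters below belong to genes on which the results turn: Ccnb1, Plk1, Aurka, Cdk1, Ube2c and Cdc20 because they were called at 1 h or are the central kinase and exit genes with large changes at 24 h, and Mki67 because its measured level did not move with the others. Capitals mark TTTGAA and TTTAAA and their reverse complements, and CCAAT and its reverse complement ATTGG. Each runs 5′ to 3′ toward the start.
Ccnb1, chr13:100786487-100786636, minus strand: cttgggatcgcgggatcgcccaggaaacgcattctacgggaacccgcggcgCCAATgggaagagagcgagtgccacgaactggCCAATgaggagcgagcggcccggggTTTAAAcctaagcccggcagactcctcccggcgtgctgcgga
Plk1, chr7:122159285-122159434, plus strand: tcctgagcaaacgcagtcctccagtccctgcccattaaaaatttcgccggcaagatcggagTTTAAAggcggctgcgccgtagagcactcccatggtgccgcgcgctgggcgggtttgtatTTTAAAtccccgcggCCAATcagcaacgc
Aurka, chr2:172370571-172370720, minus strand: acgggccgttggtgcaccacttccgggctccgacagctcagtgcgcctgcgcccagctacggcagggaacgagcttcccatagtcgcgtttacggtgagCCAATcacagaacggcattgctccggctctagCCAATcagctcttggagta
Cdk1, chr10:69352913-69353062, minus strand: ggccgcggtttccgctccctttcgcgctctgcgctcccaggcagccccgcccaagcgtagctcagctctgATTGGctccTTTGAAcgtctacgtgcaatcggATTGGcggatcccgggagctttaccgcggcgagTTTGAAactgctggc
Ube2c, chr2:164769779-164769928, plus strand: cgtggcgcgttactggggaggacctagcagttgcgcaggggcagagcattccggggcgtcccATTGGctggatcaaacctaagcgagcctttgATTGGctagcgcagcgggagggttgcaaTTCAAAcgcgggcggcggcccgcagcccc
Cdc20, chr4:118437344-118437493, minus strand: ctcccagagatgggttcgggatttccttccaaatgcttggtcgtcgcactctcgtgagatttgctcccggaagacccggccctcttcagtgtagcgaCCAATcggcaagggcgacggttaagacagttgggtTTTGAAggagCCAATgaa
Mki67, chr7:135716380-135716529, minus strand: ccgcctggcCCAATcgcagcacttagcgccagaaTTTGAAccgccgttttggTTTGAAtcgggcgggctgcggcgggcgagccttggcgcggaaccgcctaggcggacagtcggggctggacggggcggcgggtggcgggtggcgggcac
Ccnb1 and Plk1 hold TTTAAA, Cdk1, Ube2c, Cdc20 and Mki67 hold TTTGAA, and Aurka holds neither in this window. All 7 hold at least 1 CCAAT box.

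Untreated HSC carried reads for every one of the 47 genes, with a lowest count of 36 for any gene in any library of any group. Per length of exon, which allows genes to be compared, the highest mean levels in untreated HSC were those of Cks1b and Cks2, the small subunits that bind CDK1, at 159 and 65.2 RPKM (CPM per kilobase of exon), and of Ube2c at 62.8. The lowest were the long genes Cenpf at 1.44, Cenpe at 1.55 and Mki67 at 3.32. The mean log2 CPM of the 47 genes was 5.60 ± 0.26 (SD, n = 15) in untreated libraries and 6.77 ± 0.19 (SD, n = 8) in irradiated vehicle libraries at 24 h. Irradiated dmPGE2 libraries at 24 h lay between them at 5.96 ± 0.37 (SD, n = 8). Every irradiated vehicle library at 24 h lay above every library of the other 5 groups, as the lowest of them was 6.49 and the highest of all other libraries 6.39. At 1 h the means were 5.49 ± 0.47 (SD, n = 8) with radiation and vehicle, 5.68 ± 0.43 (SD, n = 8) with radiation and dmPGE2 and 5.75 ± 0.27 (SD, n = 7) with dmPGE2 alone. These 3 groups overlapped the untreated libraries.

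**Figure D1:**
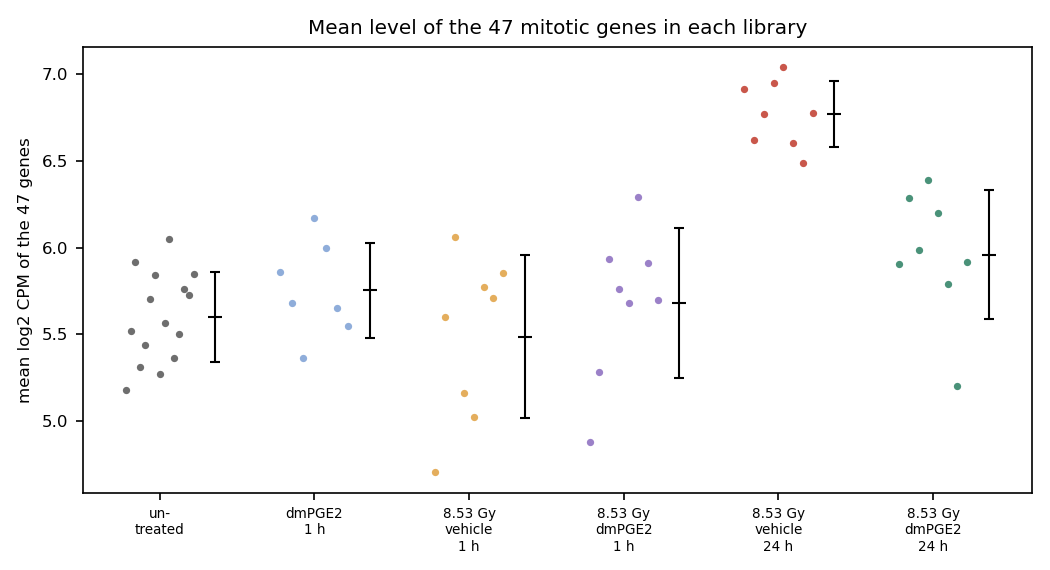
Mean log2 CPM of the 47 genes in each library, on the vertical axis, for the 6 groups along the horizontal axis. Points are libraries, and the bar to the right of each group is its mean with 1 SD. The 8 irradiated vehicle libraries at 24 h sit between 6.49 and 7.04, above all others.

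At 24 h after radiation with vehicle, mitotic genes rose together. Of 47 genes, 45 were higher than in untreated HSC and 0 lower by edgeR's quasi-likelihood test at an adjusted p below 0.05, with a median log2 fold change of 1.20. Among all 14320 genes, 23.3% were called higher and 26.5% lower, with a median of -0.06. In 31 of 47 genes, every irradiated library lay above every untreated one, against 7.37% of all genes.

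In the CDK1 group, which holds Cdk1, cyclins including cyclin F, activators and CDK1-binding subunits, 9 of 9 rose. Ccnb1 encodes cyclin B1, the partner that CDK1 needs to start mitosis. It ran from 55.2 over a median of 85.7 to 161 CPM in untreated libraries and from 287 over 419 to 553 CPM in irradiated ones, so the groups did not overlap. Its log2 fold change was 2.21 ± 0.19 (SE, adjusted p = 7.82e-14). Cdk1 itself ran from 65.4 over 85.2 to 131 CPM untreated and from 206 over 280 to 329 CPM irradiated, again without overlap. Its difference was 1.63 ± 0.14 (SE, adjusted p = 9.08e-15). Ccnb2, the other B-type cyclin of dividing cells, rose by 1.68, Cdc25c, a phosphatase that activates CDK1, by 1.74, and the CDK1-binding subunits Cks1b and Cks2 by 1.20 and 1.16 on the log2 scale.

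All 8 mitotic kinases and chromosomal passenger genes rose. Plk1, the polo-like kinase of mitotic entry and spindle formation, ran from 29.2 over 46.1 to 76.5 CPM untreated and from 100.2 over 155 to 198 CPM irradiated. The groups did not overlap, and the difference was 1.65 ± 0.19 (SE, adjusted p = 1.95e-10). Aurka, the centrosome kinase, ran from 33.5 over 45.8 to 83.1 and from 110.0 over 156 to 201 CPM, with a difference of 1.63 ± 0.17 (SE, adjusted p = 1.72e-11). Bub1, a kinase of the spindle checkpoint, rose by 1.37, and Incenp, the scaffold of the passenger complex, had the smallest rise of the 8 at 0.60.

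In the APC/C and exit group 4 of 4 rose. Ube2c, the enzyme that supplies the APC/C with ubiquitin, had the highest log2 fold change of all 47 genes. It ran from 36.8 over 53.1 to 108 CPM untreated and from 203 over 281 to 360 CPM irradiated, with no overlap. The difference was 2.29 ± 0.24 (SE, adjusted p = 2.53e-11). Cdc20, the activator of the APC/C, rose by 1.76 ± 0.15 (SE, adjusted p = 9.92e-15), from a median of 97.3 to 329 CPM. Pttg1, securin, which guards the cohesin between sister chromatids, rose least in this group, by 0.39.

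Kinetochore genes rose in 5 of 6 cases, spindle motors in 8 of 8, midzone and cytokinesis genes in 6 of 6, and genes of chromosome structure and proliferation in 5 of 6. Cenpa, the histone that marks centromeres, rose by 1.73, Hmmr, a spindle assembly protein, by 1.68, and Kif11, the motor that separates the spindle poles, by 1.06. Top2a, the enzyme that untangles chromosomes, rose by 0.82. The gene groups differed in size of change: the median log2 fold change was 1.67 in the exit group and 1.63 in the CDK1 group, and 0.71 among chromosome structure genes. Cenpf, a large kinetochore protein, ran from 5.63 over 14.9 to 28 CPM untreated and from 10.9 over 22.6 to 32.3 CPM irradiated, and its difference of 0.40 did not pass the test. Mki67, the gene of the proliferation antigen Ki-67, ran from 4.84 over 25.7 to 81.7 CPM untreated and from 11.0 over 14.1 to 23.1 CPM irradiated. Its difference was -1.05 ± 0.47 (SE, adjusted p = 0.058), the only one of the 47 below 0.

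Cell type markers of the 24 h vehicle libraries were also set against untreated ones. Among all genes 23.3% were called higher and 26.5% lower. The counts called among neutrophil genes and among T and NK cell genes are near those shares. The summed level of 9 neutrophil genes ran from 89.1 over a median of 108 to 586 CPM against 259 over 541 to 1747 CPM in untreated libraries, and 3 of the 9 were called lower. The 4 mast cell genes, all called lower, ran from 1.26 over 3.59 to 15.4 CPM against 2.27 over 63.5 to 184. The HSC sort markers had a median of 2946 against 4088 CPM, with 7 of 9 called lower and 1 higher. The megakaryocyte genes had a median of 1056 against 530 CPM, with 3 of 6 called higher, and T and NK cell genes 132 against 71.5 CPM, with 2 of 6 higher. Monocyte genes were at a median of 116 against 95.5 CPM, with 3 of 6 lower and 1 higher, and erythroid genes at 39.9 against 65.2, with 5 of the 6 tested lower and 1 higher. B cell genes together had a median of 75.3 against 62.6 CPM, and of 72 CPM in irradiated dmPGE2 libraries at 24 h. Among them, the B cell factor Pax5 was at 0 in the 24 h libraries of both irradiated groups. The part of these differences in the rise was not tested. No tag of the 24 h libraries occurs among the untreated ones, so collection and radiation at 24 h cannot be told apart. With the 2 untreated libraries of a tag summed, 44 genes rose, where 20.9% of all genes were called higher. Against only the untreated libraries of index 79 to 85, 44 rose, where 19.4% of all genes were called higher.

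Mitotic genes were lower at 24 h in irradiated mice that had received dmPGE2. Against irradiated vehicle mice, 41 of 47 genes were lower and 0 higher, with a median log2 fold change of -0.81, and all 47 were below 0. Among all genes 11.5% were called lower and 12.4% higher. In 16 of 47 genes every dmPGE2 library lay below every vehicle library, against 1.28% of all genes. This comparison and the one of radiation at 24 h use the same 8 vehicle libraries, so the rise and the fall are not independent.

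In the CDK1 group 9 of 9 fell. Ccnb1 ran from 61.5 over 210 to 252 CPM with dmPGE2, all below the 287 of the lowest vehicle library, and its difference was -1.14 ± 0.23 (SE, adjusted p = 0.000265). Cdk1 ran from 68.4 over 140 to 195 CPM, also without overlap, with a difference of -1.01 ± 0.16 (SE, adjusted p = 9.54e-06). Cdc25c, from a median of 39.1 to one of 14.5 CPM, had the lowest log2 fold change of the 47 at -1.20 ± 0.32 (SE, adjusted p = 0.00388). Ccnb2 fell by 0.93, and Cks1b and Cks2 both by 0.72.

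All 8 mitotic kinases and passenger genes fell, by 0.54 to 1.12 on the log2 scale. Plk1 ran from 28.2 over 68.8 to 97 CPM with dmPGE2, below the lowest vehicle library, and its difference was -1.12 ± 0.22 (SE, adjusted p = 0.00023). Aurka ran from 32.4 over 86.7 to 107 CPM, below the lowest vehicle library at 110.0, and fell by 1.01. Bub1 fell by 1.05. Among the exit genes Ube2c, from a median of 281 to 134 CPM, fell by 1.14 and Cdc20 by 1.01, while Pttg1 was at -0.04 and was not called.

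Spindle motors fell in 7 of 8 cases, with Kif2c, a motor that shortens microtubules, at -1.08 and Kif11 at -0.70. Kinetochore genes fell in 5 of 6, chromosome structure genes in 5 of 6 with Top2a at -0.72, and midzone and cytokinesis genes in 4 of 6. The 6 genes that did not pass were Pttg1, Mki67 at -0.10, Cenpf at -0.46, Kif4 at -0.57, Kif23 at -0.23 and Ect2 at -0.19. Without libraries 5, 6 and 7 of the dmPGE2 group, 23 of 47 genes were lower, with a median of -0.66 against 3.78% of all genes called lower. Cdc25c, Ube2c, Kif11, Top2a and Cks2 then no longer passed, with Ube2c at -0.87 and Cdc25c at -1.04. Those 3 libraries had 133, 105 and 170 CPM of Cd48, Flt3 and Il7r together, genes of cells outside the HSC gate, against 18.3 to 41.5 in the other 5. Within this dmPGE2 group Flt3 reached 163 CPM, while Cd48 reached 20.7 and Il7r 1.92. The same sum ran from 35.3 to 93 CPM in untreated libraries and up to 195 CPM with radiation and vehicle at 1 h. HSC sort markers in libraries 5, 6 and 7 summed to 4204, 4652 and 4628 CPM, against 3020 to 3658 in the other 5. Their neutrophil genes summed to 448, 625 and 281 CPM, against 281 to 816. Their monocyte genes summed to 288, 251 and 231 CPM, against 83.2 to 195. For the marker counts that follow, 12.4% of all genes were called higher and 11.5% lower. Neutrophil genes ran from 281 over 497 to 816 CPM with dmPGE2, and 3 of 9 were called higher than with vehicle. HSC sort markers were at a median of 3513 CPM, with 3 of 9 higher, and megakaryocyte genes at 595, with 5 of 6 lower. T and NK cell genes had a median of 86 CPM with dmPGE2 against 132 with vehicle, with 1 of 6 called lower. Monocyte genes had a median of 183 against 116 CPM, with 2 of 6 called higher, and erythroid genes 54.8 against 39.9, with 3 of the 6 tested higher and 1 lower. The part of these genes in the result was not tested.

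With radiation and dmPGE2, some mitotic genes were above the untreated level at 24 h. Irradiated dmPGE2 libraries at 24 h were higher than untreated ones in 21 of 47 genes and lower in 1, with a median of 0.38, against 19% of all genes higher and 17.3% lower. Ube2c was higher by 1.15 ± 0.24 (SE, adjusted p = 0.000152), Ccnb1 by 1.07 ± 0.20 (SE, adjusted p = 1.77e-05), Cenpa by 0.87, Cdc20 by 0.76, Hmmr by 0.76, Ccnb2 by 0.74, Cdk1 by 0.62 and Aurka by 0.61. All 4 exit genes and 8 of 9 genes of the CDK1 group were higher, but 1 of 8 spindle motors and 1 of 6 cytokinesis genes. In 0 of 47 genes did the groups lie apart, against 2.28% of all genes with every dmPGE2 library above and 0.922% with every one below. The 1 lower gene was Mki67 at -1.15 ± 0.47 (SE, adjusted p = 0.0498). Against only the untreated libraries of index 79 to 85, 11 genes were higher and 0 lower, against 12.6% of all genes higher and 9.23% lower, and Mki67 was at -0.55. With the 2 untreated libraries of a tag summed, 15 were higher, against 15.8% of all genes.

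**Figure D2:**
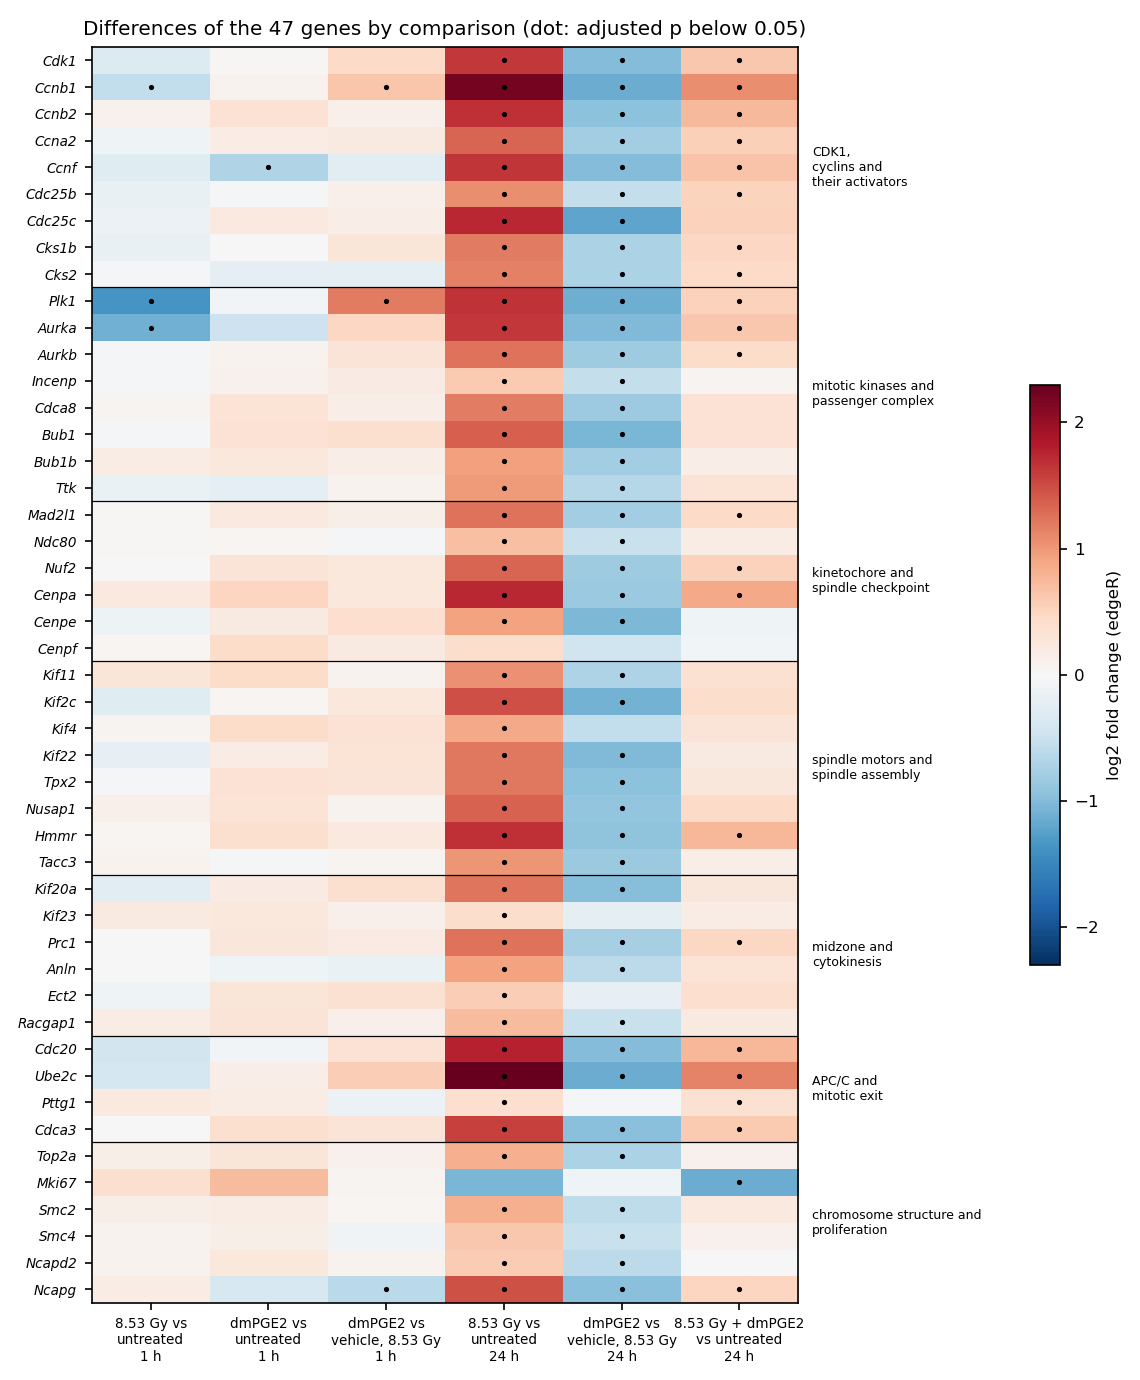
Log2 fold change of each of the 47 genes, rows grouped by role, in 6 comparisons. Red is higher and blue lower in the first group named, and a dot marks an adjusted p below 0.05. The 24 h radiation column is red with dots in 45 genes and the 24 h dmPGE2 column blue with dots in 41.

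At 1 h after radiation, 3 mitotic genes fell and the other 44 did not pass the test. Of 47 genes, 3 were lower and 0 higher, with a median log2 fold change of -0.01, against 7.31% of all genes lower and 8.65% higher. Neither count is above its all-gene share, so the counts do not set the 47 genes apart. Plk1 ran from 10.6 over 18.5 to 25.8 CPM with radiation and vehicle, below every untreated library, of which the lowest was 29.2. Of all genes, 1.17% lay wholly below in this way. The difference in Plk1 was -1.36 ± 0.21 (SE, adjusted p = 1.17e-06). Aurka ran from 16.6 over 22.9 to 36.8 CPM against 33.5 over 45.8 to 83.1 untreated, and 1 irradiated library overlapped. Its difference was -1.10 ± 0.19 (SE, adjusted p = 8.63e-06). Ccnb1 ran from 32.2 over 58.1 to 102 CPM, overlapped the untreated libraries, and differed by -0.57 ± 0.21 (SE, adjusted p = 0.0473). With the 2 untreated libraries of a tag summed, Plk1 and Aurka were lower and Ccnb1 was at an adjusted p of 0.11. With the tags that the 1 h groups share as a block, 8 genes were lower and 1 higher, against 11.9% and 13.4% of all genes, and Cdk1 at -0.33, Cdc20 at -0.45 and Ube2c at -0.50 were among the lower ones. The 1 higher was Pttg1 at 0.24. Without the block, Cdk1 at -0.31 and Cdc20 at -0.42 did not pass, while the genes of chromosome structure were between 0.08 and 0.38 and none passed.

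dmPGE2 before radiation left Plk1 and Ccnb1 higher and Ncapg lower at 1 h. Against irradiated vehicle mice at 1 h, 2 of 47 genes were higher and 1 lower, with a median of 0.18, against 7.04% of all genes higher and 7.77% lower. Both counts are below these shares and do not set the 47 genes apart. Plk1 ran from 19.9 over 44.4 to 71.6 CPM with dmPGE2, and 2 of the 8 libraries lay within the vehicle range. Its difference was 1.20 ± 0.23 (SE, adjusted p = 8.39e-05). Ccnb1 was higher by 0.64 ± 0.23 (SE, adjusted p = 0.0496), and Ncapg, a condensin subunit, was lower at -0.62 ± 0.21 (SE, adjusted p = 0.0415). When only these 2 groups were fitted, Plk1 was the 1 gene of the 47 called, against 7.61% of all genes higher and 9.69% lower. With tags as a block, 6 were higher, against 8.61% of all genes, with Cdk1 at 0.43, Ube2c at 0.59 and Cdc20 at 0.33 among them. Aurka at 0.48 did not pass without the block.

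Without radiation, 1 of 47 genes passed the test for dmPGE2 at 1 h, and 16 did when tags were taken as a block. Ccnf, cyclin F, the subunit of a ubiquitin ligase that binds its targets, ran from 29.7 over 39.4 to 58.9 CPM against 39.3 over 69.5 to 121 in untreated libraries, and was lower at -0.68 ± 0.17 (SE, adjusted p = 0.00424). The share of all genes called was 5.28% higher and 5.82% lower, so the 1 call without the block does not set the 47 genes apart. Plk1 ran from 31.5 over 44.4 to 78.6 CPM, at -0.07. When only the 2 groups were fitted, 3 of the 47 genes were called higher, against 7.57% of all genes. With tags as a block, 13 were higher and 3 lower, against 11.4% and 10.7% of all genes. The higher ones lay between 0.20 and 0.44, with Cenpa at 0.44 and Kif11 at 0.40, and the lower ones were Ccnf at -0.62, Aurka at -0.49 and Ncapg at -0.43. The block holds up to 2 untreated libraries of a tag, and whether these come from 1 mouse is not known.

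The difference between the dmPGE2 response with and without radiation passed the test in 2 of 47 genes, both higher with radiation, against 1.17% of all genes higher and 1.8% lower. These were Plk1, at 1.27 ± 0.31 (SE, adjusted p = 0.00811), and Aurka, at 0.96 ± 0.28 (SE, adjusted p = 0.0421). Aurka lost the call when the 2 untreated libraries of a tag were summed. With tags as a block, Cdk1 at 0.46 and Ccnb1 at 0.58 were called as well, against 2.93% of all genes higher. Between irradiated and non-irradiated mice that had both received dmPGE2, edgeR called 0 of 47 genes at 1 h, with log2 fold changes between -0.29 and 0.19, and 0.356% of all genes were called higher and 0.0209% lower.

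**Figure D3:**
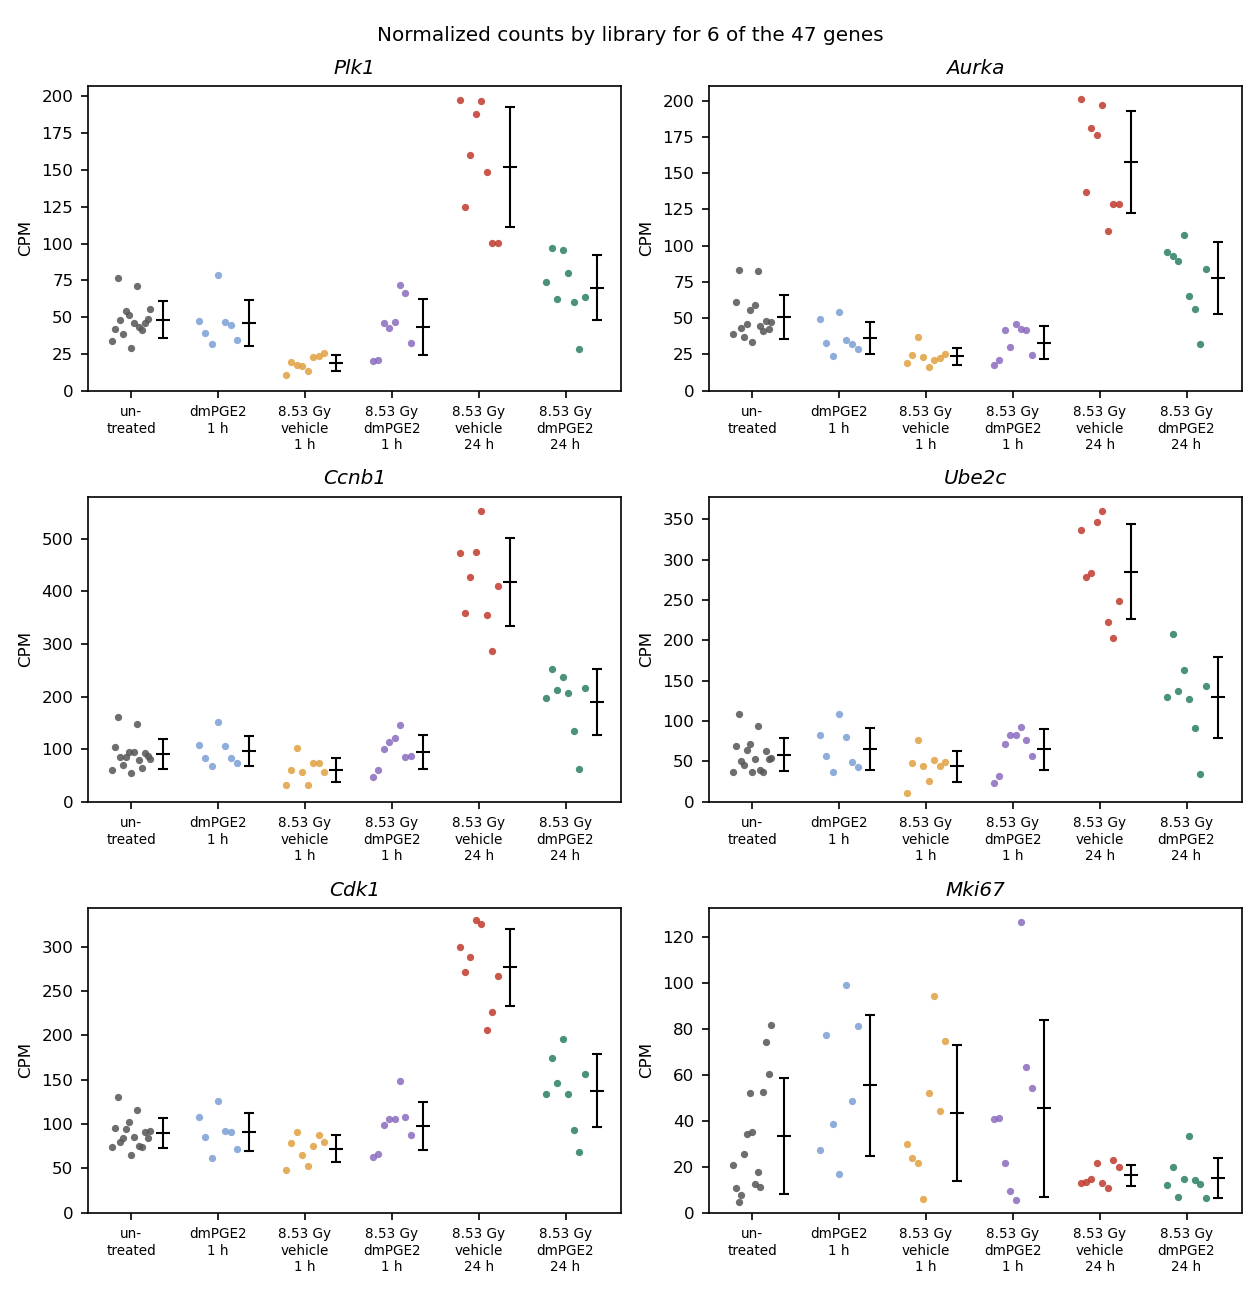
CPM of 6 of the 47 genes in each library for the 6 groups, with the mean and SD to the right of each group. Plk1 and Aurka are lowest in irradiated vehicle libraries at 1 h, Ccnb1, Ube2c and Cdk1 are highest in irradiated vehicle libraries at 24 h, and Mki67 spreads widely at 1 h and is narrow at 24 h.

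From 1 h to 24 h with radiation and vehicle, 43 of 47 genes rose and 1 fell, with a median of 1.23, against 23.4% of all genes higher and 27.5% lower. Plk1 rose most, by 3.01 ± 0.24 (SE, adjusted p = 2.53e-15), followed by Ccnb1 at 2.78 and Aurka at 2.73. In 30 of 47 genes every library of 24 h lay above every one of 1 h, against 11% of all genes. The 1 lower gene was Mki67 at -1.42. With radiation and dmPGE2, 11 rose and 1 fell over the same time, with a median of 0.26, against 18.1% of all genes higher and 18.2% lower. Aurka rose by 1.23, Ccnf by 1.19 and Ccnb1 by 1.00, and the 1 lower gene was Mki67 at -1.59. The dmPGE2 response differed between the times: it was lower at 24 h than at 1 h in 36 of 47 genes and higher in 0, with a median difference of -0.96, against 12.6% of all genes lower and 12.9% higher. Plk1 had the largest difference, at -2.32 ± 0.32 (SE, adjusted p = 2.63e-07). Without libraries 5, 6 and 7 of the 24 h dmPGE2 group, 22 were lower, against 8.64% of all genes.

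Of 45 other genes of mitosis, 42 rose and 0 fell at 24 h after radiation with vehicle, and 38 fell and 0 rose with dmPGE2 at that time. Birc5, survivin, a subunit of the passenger complex, rose by 1.53 ± 0.17 and then was lower with dmPGE2 at -0.92 ± 0.20 (SE). The highest were Psrc1, a microtubule regulator that is also a p53 target, at 3.91, and Kifc1, a motor that gathers spindle poles, at 2.64. A list of 14 APC/C genes holds core subunits, the coactivator Fzr1 and Ube2s, an enzyme that extends ubiquitin chains. Of these, 9 rose and 0 fell with radiation at 24 h, with a median of 0.24, and 7 fell and 0 rose with dmPGE2, with a median of -0.24. Fzr1 rose by 0.41 and Ube2s by 0.54, and with dmPGE2 they were lower at -0.46 and -0.56, the lowest values of the list. All-gene shares at 24 h, which apply to each list here, were 23.3% higher and 26.5% lower with radiation and 12.4% higher and 11.5% lower with dmPGE2.

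Of 16 regulators of these genes in MuvB, B-MYB, FOXM1 and DREAM, 5 rose and 2 fell with radiation at 24 h, and 1 rose and 9 fell with dmPGE2. The count that rose with radiation is near the 23.3% of all genes called higher and the count that fell is below the 26.5% called lower, so neither sets the list apart, while 11.5% of all genes fell with dmPGE2. Foxm1, a transcription factor of G2 genes, rose by 0.71 ± 0.21 (SE, adjusted p = 0.00346) and was lower with dmPGE2 at -0.82 ± 0.24 (SE, adjusted p = 0.00979). Mybl2, which encodes B-MYB, rose by 0.89 and was lower with dmPGE2 at -0.70. The range of Foxm1 was 37.9 to 59 CPM in the irradiated vehicle libraries and 10.9 to 36.2 CPM in the dmPGE2 libraries at 24 h, with no overlap.

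Brakes on mitotic entry had changed by 1 h. Of 14 such genes, 7 rose and 1 fell with radiation and vehicle at 1 h, against 8.65% of all genes higher and 7.31% lower. Cdkn1a, the gene of p21, ran from 5.73 over 6.81 to 17.6 CPM in untreated libraries and from 559 over 626 to 850 CPM with radiation, a difference of 6.31 ± 0.17 (SE, adjusted p = 5.55e-36). Gtse1, a G2 and S phase protein that p53 induces, rose by 3.17, and Wee1, the kinase that inhibits CDK1, was lower at -0.43. With dmPGE2 before radiation, 6 of 14 were lower and 0 higher at 1 h, against 7.77% and 7.04% of all genes. Among the lower ones were Gtse1 at -2.86, Ccng1 at -2.42 and Cdkn1a at -1.10. dmPGE2 without radiation raised Cdkn1a by 3.98, Btg2 by 3.22 and Plk2 by 2.92. At 24 h Cdkn1a was 6.40 higher with radiation and vehicle than untreated, and with dmPGE2 before radiation it was at -0.22 against vehicle and was not called. Of the 14, 4 were called for dmPGE2 at 24 h, where 11.5% of all genes were called lower and 12.4% higher. This count is near those shares and does not set the list apart. Pkmyt1, a kinase that inhibits CDK1, was lower at -0.59 and Chek1, a checkpoint kinase, at -0.75, while Gadd45a, a stress gene of the G2 checkpoint, was higher by 0.78 and Sfn, a 14-3-3 protein, by 0.65.

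In male and female mice at 24 h, dmPGE2 libraries lay below vehicle libraries in the mean of the 47 genes without overlap. Females ran from 6.62 to 6.95 log2 CPM with vehicle and from 5.90 to 6.39 with dmPGE2, and males from 6.49 to 7.04 and from 5.20 to 6.20. Among males 38 of 47 genes were lower and 0 higher, against 8.39% and 7.66% of all genes. Among females 2 of 47 were lower and 0 higher, against 0.146% and 0.175%, with 4 libraries a group. The median log2 fold change was -0.95 in males and -0.61 in females. The difference between the sexes passed edgeR's test in 0 of 47 genes and 0% of all 13714 genes tested, and 3 of the 47 had an unadjusted p below the threshold of 0.05. Libraries 5, 6 and 7, which stood apart, are 3 of the 4 male dmPGE2 libraries.

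The size of the difference went with exon length. Across the 47 genes, Spearman's rho between exon length and log2 fold change was -0.54 for radiation with vehicle at 24 h and -0.62 for irradiated dmPGE2 against untreated at 24 h, while across all 14320 genes it was -0.29 and -0.26. It had the other sign for dmPGE2 against vehicle in irradiated mice at 24 h, at 0.35 across the 47 genes and 0.14 across all genes, and for radiation with vehicle at 1 h, at 0.29 and 0.29. Genes are not independent replicates, and these values are descriptions. Mki67, with 10075 bases of exon, Cenpf, with 11122, and Cenpe, with 7813, are the 3 longest of the 47. The median log2 fold change of all genes at 24 h with radiation and vehicle was 0.17 for exons of up to 2000 bases and -0.46 for those above 8000.

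A relation of the same sign was present between untreated libraries of 1 tag. Comparing the 7 libraries of index 79 to 85 with the 7 of index 42 to 70 and the tag as a block, rho was -0.69 across the 47 genes and -0.50 across 13178 genes. Of the 47 genes 4 were higher and 4 lower, against 8.07% of all genes higher and 9.26% lower, and the median was -0.02. Mki67 was lower in 7 of 7 pairs, at -0.82 ± 0.15 (SE, adjusted p = 0.00232), and Kif11 was at -0.39. Ube2c was higher by 0.27, Cks2 by 0.37, Cks1b by 0.28 and Cdk1 by 0.16, while Plk1 at 0.04 and Ccnb1 at 0.11 did not pass. Libraries of 1 h have index numbers 43 to 72 and those of 24 h start at 86, so index set and time cannot be told apart in the comparisons across times. The comparison of dmPGE2 with vehicle at 24 h lies within the index set of 24 h and also went with exon length, as given above.

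**Figure D4:**
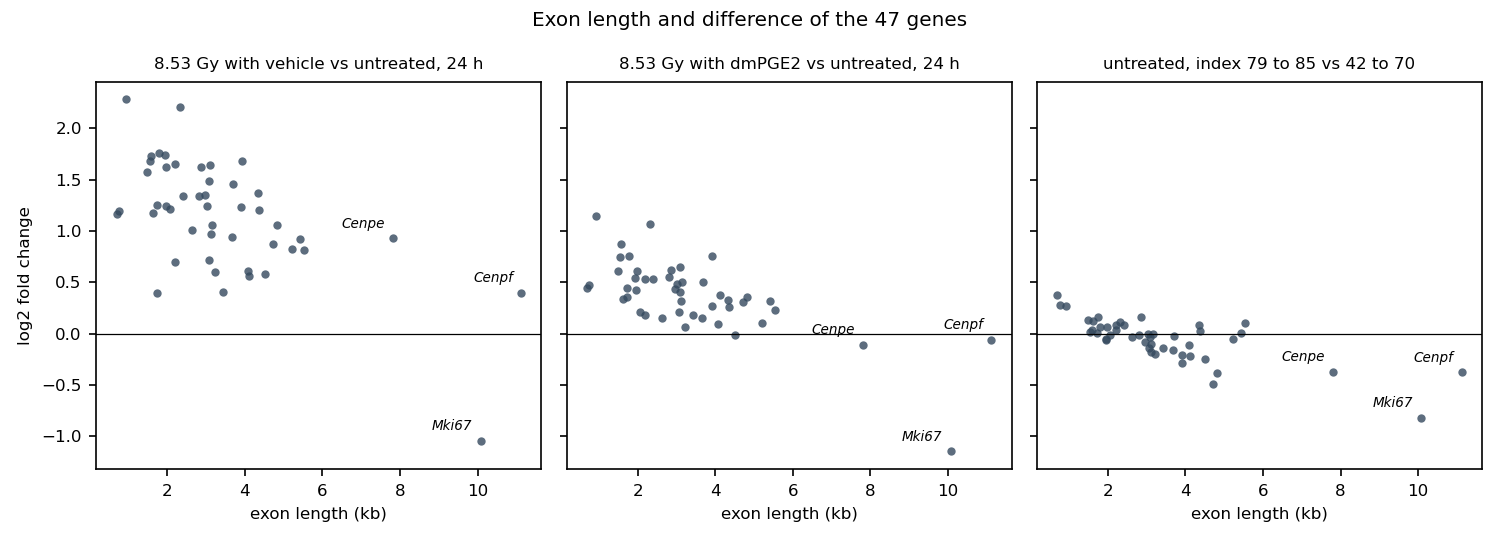
Log2 fold change against exon length in kilobases for the 47 genes, for 2 comparisons with untreated HSC at 24 h and for 2 sets of untreated libraries with the same tags. Each point is a gene, and Mki67, Cenpf and Cenpe are named. Long genes lie lower in all 3 panels, with Mki67 at -1.05, -1.15 and -0.82.

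The 47 genes varied together within groups. After each group's mean was taken out, the median correlation between pairs of them was 0.69 over 54 libraries, with a range from -0.57 to 0.94, and 93.3% of pairs were above 0, while pairs of all genes had a median of 0.00096. These values are descriptions over libraries, and the source of the shared variation was not tested. Nusap1, a spindle protein, had the highest median correlation with the other members, at 0.82, and Cdc20 was at 0.81. Mki67 was at -0.02 and Pttg1 at -0.33.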

How the data were processed

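Per the labels' protocols, full-length cDNA came from SMART-Seq v4 and libraries from Nextera XT. This chemistry marks neither strand nor molecule. Per the submitters' processing notes, the tools were STAR 2.5.2b, featureCounts and Subread 1.5.1, with the build mm10. The authors deposited raw counts per gene and library, with exon lengths. The sources used here name no annotation, strand setting or rule for reads with several matches.

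Columns were given to groups by name where that left a single group. Columns of 24 h name no radiation and those of 1 h no time, so their group also rests on the number of samples in each. 0 columns of other samples were found. By reads, 10 untreated libraries were male and 5 female, where the labels give 8 and 7.

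The 54 libraries were fitted with edgeR 4.0.16 in R 4.3.3 (filterByExpr with a count minimum of 10, TMM, robust quasi-likelihood, 1 mean per group). Adjusted p values are Benjamini-Hochberg values over all 14320 genes, and SE was derived from each log2 fold change and its F statistic. Log2 CPM used a prior count of 3. DESeq2 1.42.0 and other scalings, filters and sample sets were alternatives. On simulated counts of 14141 genes for dmPGE2 at 24 h, 73% of 200 genes changed by 1 on the log2 scale were recovered, with 7 false of 153 calls.

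The 47 genes and the other gene lists were chosen with earlier results of these data known. Values are given for Cdk1, Ccnb1, Ccnb2, Plk1, Aurka, Cdc20, Bub1, Cenpf, Kif11, Top2a, Mki67, Cks1b and Cks2 whatever they did. In each comparison they are also given for up to 5 called genes with the highest and 5 with the lowest log2 fold change at a mean log2 CPM of at least 2. Other genes named were chosen after their values were seen.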

Additional observations from a re-analysis of the deposited data

Results flagged for a closer look

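By edgeR's test of the difference, the response to dmPGE2 in irradiated HSC differed between 1 h and 24 h in 36 of 47 genes. All 36 were lower at 24 h, against 12.6% of all genes lower and 12.9% higher. The response differed between irradiated and non-irradiated mice at 1 h in 2 genes, Plk1 and Aurka, both higher with radiation. The all-gene shares were 1.17% higher and 1.8% lower. Aurka lost the call when the 2 untreated libraries of a tag were summed.

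In 70 groups of values looked at, 1 library lay far from the others in 3, where chance gives about 1 in 20. Plk1 was at 78.6 CPM in 1 library given dmPGE2 without radiation, and the next was at 47.7 CPM. With radiation and vehicle at 1 h, Aurka was at 36.8 CPM in 1 library and 25.6 in the next, and Cks2 at 68.4 CPM and 46.9 in the next.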

How the results depend on the processing

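Of the counts of called genes under alternatives, 148 stayed within 1.5 times of the reported count and 26 did not. Tags were not taken to pair samples in the main fit, since the labels do not say what a tag marks. Between the irradiated groups at 1 h, same-tag correlations were all above 0, with a lowest value of 0.068 and a median of 0.13. At 24 h these values were -0.016 and 0.031. Between untreated and irradiated vehicle libraries at 1 h the lowest was -0.064. If tags do mark pairs, the main 1 h results leave the pairing out. At 1 h 5 of 8 libraries correlated best with their own tag and 7 of 8 tags had 1 sex by reads in all their libraries, a hint of pairing from the data and not from the labels. At 24 h 3 of 8 libraries correlated best with their own tag. With tags as a replicate block, radiation at 1 h gave 1 gene higher and 8 lower, against 13.4% and 11.9% of all genes. dmPGE2 in irradiated HSC at 1 h then gave 6 higher, against 8.61%. dmPGE2 without radiation gave 13 higher and 3 lower, against 11.4% and 10.7%. The dmPGE2 by radiation difference gave 4 higher, against 2.93%, and its median also turned from -0.05 to 0.0067. No paired analysis was possible because no tags are shared for untreated against 24 h and across times. Fitting only the groups compared gave 1 lower for radiation at 24 h, where 26.6% of all genes were called lower. It gave 1 higher and 0 lower for dmPGE2 in irradiated HSC at 1 h, against 7.61% and 9.69%. For dmPGE2 without radiation it gave 3 higher, against 7.57%, and for irradiated dmPGE2 against untreated 0 lower, against 16.3%. Total counts alone, DESeq2 and untreated libraries of index 42 to 70 each gave 1 lower for radiation at 24 h. All-gene shares there were 33.5%, 27.8% and 25.7% lower. Without a filter, dmPGE2 in irradiated HSC at 1 h gave 1 higher and 0 lower, against 5.17% and 5.75% of all genes. Irradiated dmPGE2 against untreated then gave 0 lower, against 14.3%. The dmPGE2 by radiation difference gave 1 higher without a filter, with summed tags and with index 42 to 70, against 0.739%, 0.888% and 0.648%. RLE factors gave 0 lower for irradiated dmPGE2 against untreated, where 16.4% of all genes were called lower. Index 79 to 85 alone gave 1 higher for dmPGE2 without radiation, against 6.41% of all genes. For irradiated dmPGE2 against untreated it gave 11 higher and 0 lower, against 12.6% and 9.23%. Leaving out libraries 5, 6 and 7 was chosen after seeing the data, as were the choices on untreated libraries. Without libraries 5, 6 and 7, dmPGE2 at 24 h gave 23 lower, against 3.78% of all genes. The difference between times gave 22 lower, against 8.64%. No named gene changed direction. The lowest count of any of the 47 genes in any library was 36.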
